A study of Homo sapiens with 20 samples.

Results

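RAS GTPases and the feedback inhibitors of the MAP kinase pathway were examined as m6A targets in 9 transcripts. These were HRAS and NRAS, the ERK phosphatases DUSP4, DUSP5 and DUSP6, the Sprouty genes SPRY2 and SPRY4, and the Spred genes SPRED1 and SPRED2. A peak was a member when its summit, the point of highest signal, lay in an annotated exon of one of these genes. By this rule 167 of the 231465 called peaks were members, 80 in T24 and 87 in T24R2. They fell into 22 of the 43676 regions made by merging the peaks of all libraries, of which 28629 were exonic. Regions are numbered here from the 5′ end of each transcript. All 9 genes had at least 1 member peak, and 7 of the 9 had a region called in every library, without a share over all genes to set beside it.

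The measurements come from methylated RNA immunoprecipitation sequencing (MeRIP-seq), in which an antibody to the RNA mark N6-methyladenosine (m6A) captures RNA fragments, and the captured RNA is compared with input RNA. T24, a cisplatin-sensitive human bladder cancer line, was compared with T24R2, a resistant line derived from T24 by serial exposure to cisplatin and maintained with the drug. Both lines were labelled WT in genotype and Day 3 in time, and all 10 immunoprecipitated (IP) libraries, 5 per line, used the same NEB E1610 antibody. Input libraries entered only as the background of the peak calling. The resistant line is a single derived line, and nothing states that replicates were separate cultures, so the tests measure the spread between these libraries only.

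RAS proteins are membrane switches that, when bound to GTP, activate RAF, MEK and ERK kinases. Active ERK induces its own inhibitors, so the transcripts of DUSP, Sprouty and Spred genes are short-lived readouts of pathway output as well as brakes on it. DUSP4 and DUSP5 are nuclear phosphatases of MAP kinases, DUSP6 removes phosphate from ERK in the cytoplasm, Sprouty proteins restrain signalling from receptors to RAS and RAF, and Spred proteins bring the RAS inactivator neurofibromin to the membrane. T24 is known to carry a mutant HRAS. Deposition of m6A favours the motif DRACH, whose central AC is preceded by a purine and, before that, by any base but C, and is followed by any base but G. The mark is commonly found in long exons and around stop codons.

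The sequences below are the DRACH sites nearest the strongest summit in the regions on which the comparisons turn. They show which letters lie under the peaks, with the DRACH motif in capitals and 8 flanking bases on each side, read 5′ to 3′ on the strand of the gene from hg38.
HRAS region 1, 3′UTR, chr11:532500-532520, minus strand: caagctcaGGACAtggaggtg
DUSP5 region 1, 3′UTR, chr10:110510600-110510620, plus strand: ggttctcgGGACTgaaggaag
DUSP6 region 2, CDS, chr12:89350754-89350774, minus strand: tgtgccaaAGACTccaccaac
SPRY2 region 2, CDS, chr13:80337055-80337075, minus strand: aacgtgatTGACTatgggact
SPRY4 region 1, CDS, chr5:142314437-142314457, minus strand: tcctgcgcTGACCacccctgc
SPRED1 region 2, CDS, chr15:38351239-38351259, plus strand: tcacccaaAGACTctgtggta
SPRED1 region 3, 3′UTR, chr15:38354530-38354550, plus strand: caggccagAGACAtgagatgg

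The motif nearest a summit is not a mapped m6A site, since a peak spans many bases and several motifs can lie under it. The A of the HRAS motif lay 18 nt past the stop codon and that of DUSP5 lay 184 nt past it. The A of the SPRED1 region 2 motif was 43 nt from the summit, the farthest of the 7 shown.

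Across the 152 member summits where genes lie on 1 strand only, 78.9% had a DRACH motif within 50 nt on the sense strand (95% exact binomial interval 71.6 to 85.1) and 70.4% had one on the antisense strand. Over all 165758 such exonic summits the shares were 90.5% and 71.6%. For the shorter core GGAC, the member shares were 61.8% on the sense strand and 14.5% on the antisense strand, and the shares over all exonic summits were 47.9% and 24.4%. Summits of different libraries in 1 region share their sequence, so these shares describe 9 transcripts and not independent sites, and the interval covers counting error only. SPRED2 region 1, in the 5′UTR, was the only member region with no DRACH motif within 50 nt of its strongest summit.

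**Figure D1:**
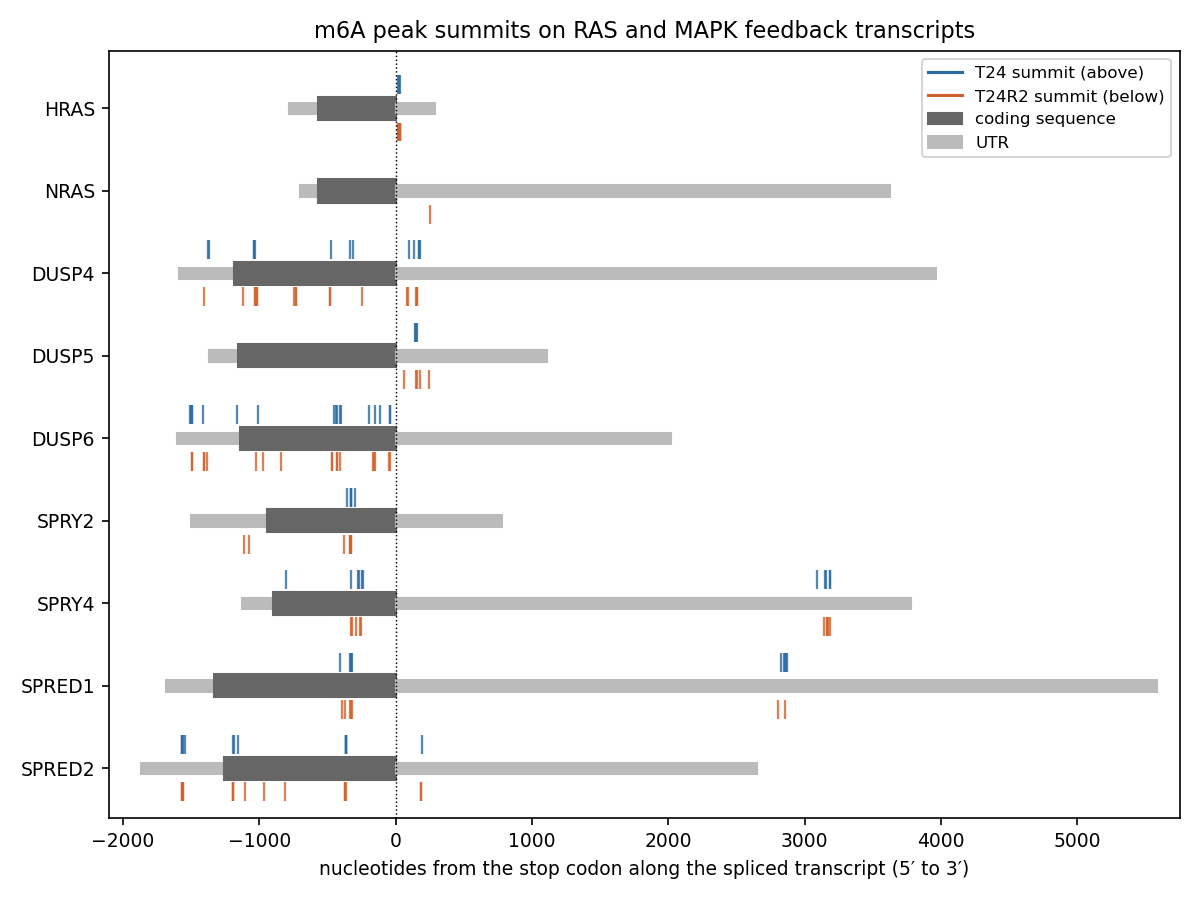
Summits of member peaks along each spliced representative transcript, in nucleotides from the stop codon (dotted line), with T24 summits above and T24R2 summits below the transcript (dark, coding sequence; light, UTR). Where both lines have peaks their summits lie in the same stretches, and HRAS and NRAS hold 1 cluster and 1 summit, 14 to 32 nt and 253 nt past the stop codon.

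All 7 feedback transcripts carried a called m6A region in every library, and the RAS transcripts did not. A region called in all 10 libraries was found in DUSP4, DUSP5, DUSP6, SPRY2, SPRY4, SPRED1 and SPRED2, and in neither HRAS nor NRAS. The share of all genes with such a region was not computed, so these gene counts stand without a background. In all, 12 of the 22 member regions were called in all 10 libraries (54.5%), against 29.7% of all exonic regions. Of these 12 regions, 8 had their strongest summit in the last exon (66.7%, against 60.8% of 7159 exonic regions called in all 10 libraries and placed on a representative transcript), and 4 lay within 200 nt of the stop codon (33.3% against 27.5%). Each region was placed by its strongest summit over the libraries. For SPRED2 region 5 this was the summit of T24R2 replicate 4, 183 nt past the stop codon. Its median summit lay at −366 nt, outside the 200 nt, so the count of 4 rests in part on that library. All 12 lay in exons longer than 400 nt, as did 92.0% of the comparison regions. A peak needs an expressed transcript, and fewer transcripts and less methylation cannot be told apart from a missing peak.

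HRAS, which encodes a RAS GTPase, had 1 region, in its 3′UTR at chr11:532269-532795. A peak was called there in 4 of the 5 libraries of T24 and in all 5 of T24R2. The deposited −log10 q-value, higher for a more significant peak, was 2.12 to 7.24 in T24 and 4.61 to 13.2 in T24R2. With only peaks of −log10 q of at least 5, the share of libraries with the region was 0.6 higher in T24R2 (Fisher's exact test, unadjusted p = 0.206). Fold enrichment, the IP signal over the local input level, was 1.85, 2.04, 2.59 and 2.38 in T24 replicates 1, 3, 4 and 5, and no peak was called in replicate 2. In T24R2 replicates 1 to 5 it was 2.83, 2.36, 2.81, 2.03 and 3.71. The lines overlapped, and the highest value was that of T24R2 replicate 5. These are among the lowest enrichments in each list, with percentiles of 0.183 to 1.54 in T24 and 0.172 to 8.71 in T24R2, where 0 is the weakest peak of a library and 100 the strongest. Over the 14305 regions called in at least 3 libraries of each line, the HRAS region was 0.24 ± 0.21 (SE) higher in T24R2 on the log2 scale (limma adjusted p = 0.672). Of the 9 HRAS summits, 8 lay 14 to 32 nt past the stop codon, and the other lay in an exon of another isoform.

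NRAS, a second RAS GTPase, had a single peak, in T24R2 replicate 5, with a fold enrichment of 3.06 (percentile 3.15). It lay 253 nt past the stop codon in the 3′UTR (chr1:114707840-114707926). That library also held the most peaks, 33120, where the other 9 lists held between 17203 and 25603.

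Among the ERK phosphatases, DUSP5 was the gene whose region had a higher fold enrichment in every T24R2 library than in any T24 library. Its only region covered the start of the 3′UTR (chr10:110509987-110511424) and its strongest summits lay 61 to 245 nt past the stop codon. It includes the GGACT site shown above. Fold enrichment was 4.32, 3.35, 5.87, 5.59 and 3.30 in T24 replicates 1 to 5. In T24R2 replicates 1 to 5 it was 7.30, 10.5, 6.79, 7.80 and 7.22. The median percentile was 12.3 in T24 and 58.0 in T24R2. The difference in limma's fit was 0.75 ± 0.24 (SE) on the log2 scale after centring each library on its median, a 1.68-fold higher enrichment, with a 95% interval of 0.25 to 1.25 (limma adjusted p = 0.141 over 9577 regions). The percentiles differed by 42.5 points (exact permutation p = 0.0079, the smallest that 5 against 5 libraries can give, adjusted p = 0.176).

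DUSP4 had 4 regions. Region 4, which runs from the end of the coding sequence into the 3′UTR, had fold enrichments of 6.97, 5.44, 8.37, 9.39 and 4.18 in T24 replicates 1 to 5. They were 9.08, 12.9, 11.04, 12.9 and 8.84 in T24R2. Only T24 replicate 4 reached into the T24R2 range, and the difference was 0.61 ± 0.26 (SE) on the log2 scale (limma adjusted p = 0.267). Region 1, near the start of the coding sequence, ran from 5.58 to 9.43 (median 8.88) in T24 and from 9.22 to 14.6 (median 10.5) in T24R2. Its difference was 0.41 ± 0.26 (SE), with a 95% interval of −0.12 to 0.94 (limma adjusted p = 0.518). Regions 2 and 3 are short internal stretches of the coding sequence that were called in part of the libraries only. Region 2 had no peak in T24 (0 of 5) and a peak in 4 of 5 T24R2 libraries, with fold enrichments of 9.24, 4.70, 4.62 and 5.24 in T24R2 replicates 1, 2, 4 and 5. In 1 of these 4 libraries the summit lay just outside the exon. Region 3 was called in 1 T24 library, at 3.59, and in 2 T24R2 libraries, at 6.75 and 4.18.

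DUSP6 had 3 regions, all called in all 10 libraries. Region 2, in the second of 3 exons (chr12:89350618-89351102), had fold enrichments of 5.53, 4.11, 4.19, 6.81 and 2.31 in T24 replicates 1 to 5. They were 5.60, 8.43, 5.77, 7.93 and 7.08 in T24R2. The ranges overlapped through T24 replicate 4. The difference was 0.57 ± 0.26 (SE) on the log2 scale (limma adjusted p = 0.322), and 0.37 without T24 replicate 5. Region 3, with its summits at the 3′ end of the coding sequence, runs past the stop codon into the 3′UTR (chr12:89348669-89349595). This region was the strongest of the gene in 9 of 10 libraries, all but T24 replicate 5. It had a median fold enrichment of 11.1 in T24 (range 3.80 to 15.0) and 10.3 in T24R2 (6.36 to 15.0), a difference of 0.04 ± 0.31 (SE) with an interval of −0.60 to 0.67. Region 1, in the 5′UTR and the start of the coding sequence, had a median of 5.60 in T24 (4.36 to 8.70) and 4.40 in T24R2 (3.16 to 8.92), a difference of −0.28 ± 0.30 (SE). It ranged from −0.45 without T24R2 replicate 4 to −0.07 without T24R2 replicate 5, and was −0.43 and −0.13 without T24 replicates 4 and 5. The peak lists carry no strand, and an exon of ENSG00000274021 on the opposite strand lies at region 1, so its signal may belong to either transcript.

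**Figure D2:**
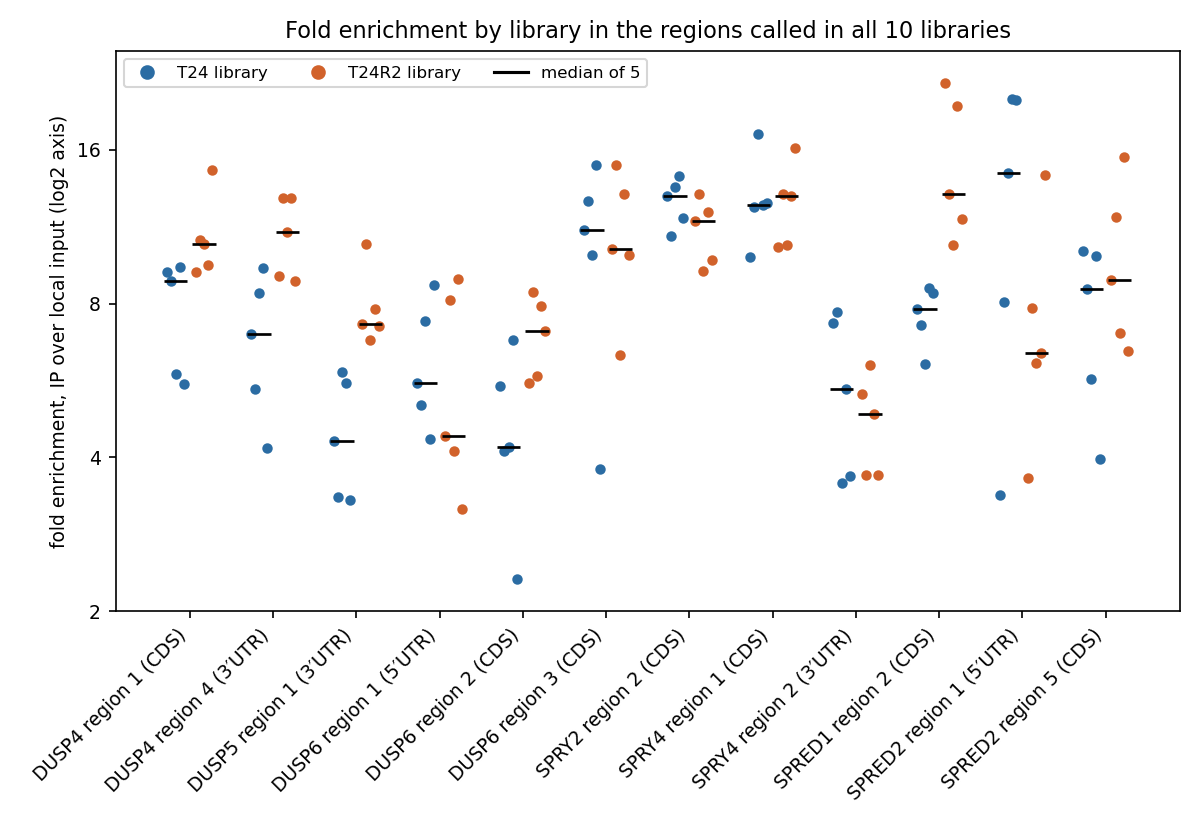
Fold enrichment (IP over local input, log2 axis) of the strongest peak in each of the 12 member regions called in all 10 libraries. Each point is 1 library (T24 blue, T24R2 orange) and each bar the median of 5; DUSP5 region 1 and SPRED1 region 2 are the regions in which all T24R2 points lie above all T24 points.

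The Sprouty transcripts carried some of the strongest member peaks in both lines. SPRY2 region 2, in the coding sequence of the last exon (chr13:80336763-80337769), had fold enrichments of 12.99, 10.9, 13.6, 14.2 and 11.8 in T24 replicates 1 to 5. They were 11.6, 13.1, 9.25, 12.1 and 9.73 in T24R2. The ranges overlapped as deposited, but after centring every T24R2 library was below every T24 library. The difference was −0.29 ± 0.22 (SE) on the log2 scale, with a 95% interval of −0.74 to 0.17 (limma adjusted p = 0.610). A region in the 5′UTR of SPRY2 was called in 2 T24R2 libraries and no T24 library, with fold enrichments of 4.40 and 3.23.

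SPRY4 had a region with its summits in the coding sequence, called the coding region here, that runs past the stop codon into the 3′UTR (chr5:142313315-142315271). It also had a region far down its 3′UTR (chr5:142310905-142311485). The summits of both lay in the last exon. The coding region had percentiles of 72.0 to 95.2 in T24 and 81.2 to 94.8 in T24R2. Its fold enrichments were 9.89, 12.4, 17.2, 12.5 and 12.6 in T24 replicates 1 to 5 and 10.3, 13.1, 10.4, 13.02 and 16.1 in T24R2. The lines overlapped throughout, and the difference was −0.13 ± 0.23 (SE) on the log2 scale (limma adjusted p = 0.860). It ranged from −0.24 without T24 replicate 1 to −0.05 without T24 replicate 3, and was −0.19 without T24R2 replicate 5. The distal region, 3093 to 3184 nt past the stop codon, was weaker, at 3.56 to 7.72 (median 5.44) in T24 and 3.69 to 6.07 (median 4.87) in T24R2. Its difference was −0.28 ± 0.29 (SE), with an interval of −0.88 to 0.32. It was −0.18, −0.11 and −0.45 without T24 replicates 1, 2 and 3, and −0.16, −0.42 and −0.17 without T24R2 replicates 2, 3 and 5.

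SPRED1 showed the largest positive difference of the 12 regions called in all 10 libraries, and its regions 2 and 3 pointed in opposite directions. Region 2, in the coding sequence of the last exon (chr15:38350939-38351620), had fold enrichments of 7.80, 7.25, 6.11, 8.60 and 8.40 in T24 replicates 1 to 5. They were 21.6, 13.1, 10.4, 19.5 and 11.7 in T24R2. Every T24R2 library was above every T24 library, and T24R2 replicates 1 and 4 stood highest. The difference was 0.85 ± 0.26 (SE) on the log2 scale, a 1.81-fold higher enrichment, with a 95% interval of 0.31 to 1.40 (limma adjusted p = 0.121). The percentiles differed by 33.9 points (exact permutation p = 0.0079, adjusted p = 0.176).

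Region 3 of SPRED1 lies in the same exon, 2801 to 2871 nt past the stop codon (chr15:38354372-38354628). It was called in 5 of 5 T24 libraries, at fold enrichments of 8.11, 10.1, 9.97, 9.28 and 12.4, and in T24R2 replicates 4 and 5 only, at 7.63 and 7.79. Both T24R2 values lay below all 5 T24 values, and 3 T24R2 libraries had no peak there. Presence did not pass a two-sided Fisher's exact test (unadjusted p = 0.167). Region 1, in an exon of a noncoding isoform, was called in 2 T24 libraries and 1 T24R2 library. The opposite directions of regions 2 and 3 were not tested against each other, since region 3 was missing from libraries.

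SPRED2 had 5 regions. Region 5 spans the stop codon in the last exon (chr2:65312842-65314264), and its strongest summit lay at 1 of 2 places, at −374 to −363 nt from the stop codon in 7 libraries and at 182 to 193 nt in 3. Its fold enrichments ran from 3.97 to 10.1 (median 8.55) in T24 and from 6.46 to 15.5 (median 8.91) in T24R2, a difference of 0.29 ± 0.30 (SE). It was 0.10 without T24 replicate 5, 0.13 without T24R2 replicate 4, 0.17 without T24 replicate 3 and 0.46 without T24R2 replicate 5. Region 1, in the 5′UTR (chr2:65431997-65432520), had the largest spread in T24, with an SD of 7.37 around a mean fold enrichment of 13.2. Its fold enrichments were 3.38, 8.07, 14.4, 20.1 and 19.99 in T24 replicates 1 to 5. They were 3.65, 7.83, 6.13, 6.40 and 14.3 in T24R2. The lines overlapped, and the difference was −0.76 ± 0.40 (SE) on the log2 scale (limma adjusted p = 0.417). Without T24 replicate 1, the lowest library, it was −1.20 (adjusted p = 0.082). Region 2, in an internal coding exon, was called in 3 T24 and 4 T24R2 libraries, at 3.20 to 7.33 and 2.36 to 4.60. In the fit over regions in at least 3 libraries of each line its difference was −0.72 ± 0.32 (SE) on the log2 scale (limma adjusted p = 0.300), the only member region lower in T24R2 there at an unadjusted p under 0.05. Regions 3 and 4 were each called in a single T24R2 library.

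**Figure D3:**
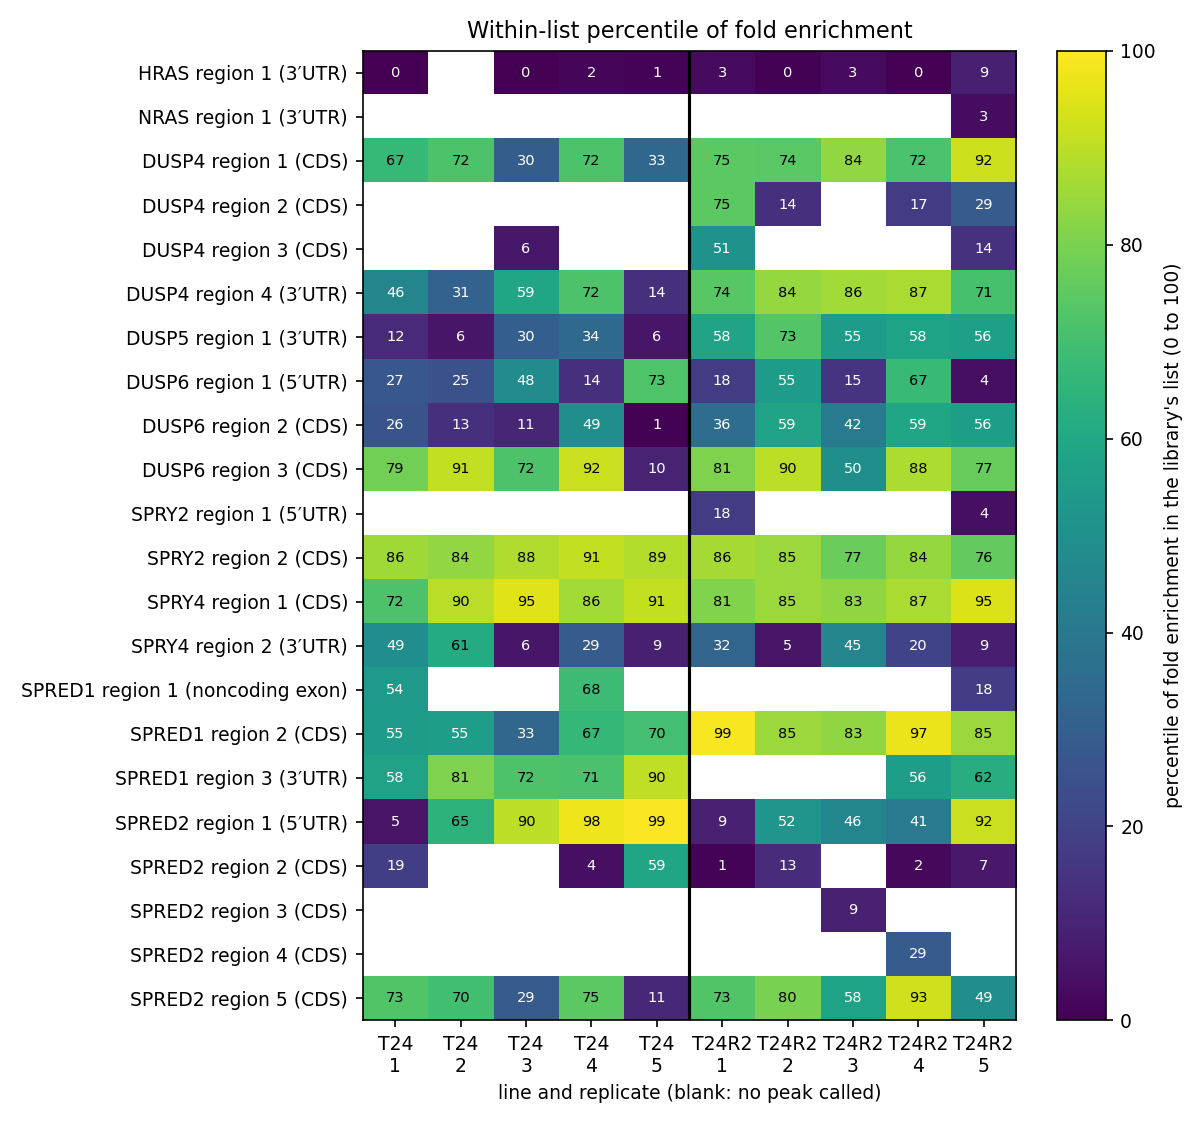
Percentile of fold enrichment within each library's own list (0 weakest, 100 strongest) for the 22 member regions, by line and replicate; blank cells had no peak. HRAS stays at or under 8.71 wherever it was called, whereas SPRY2 region 2 and SPRY4 region 1 are at or above 72.0 in all 10 libraries.

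Presence of a region was compared between the lines with a two-sided Fisher's exact test over 5 against 5 libraries. No member region was called in all 5 libraries of one line and none of the other, where 3.02% of all 43676 regions were called in this way in T24R2 and 1.05% in T24. At an unadjusted p under 0.05, 1 of 22 member regions was present more often in T24R2, DUSP4 region 2 (exact p = 0.048, adjusted p = 0.517), against 7.11% of all regions, and 0 were present more often in T24, against 2.09%. The 4 T24R2 libraries counted for DUSP4 region 2 include the 1 whose summit lay outside the exon. Only 3 held a member peak by the summit rule, and presence by that rule was not tested. After adjustment over all regions, 0 of 43676 regions passed. Leaving out T24R2 replicate 4 or replicate 5 added SPRED1 region 3, for a count of 2 (exact p = 0.048). The T24R2 lists were longer, at 22671 to 33120 peaks against 17203 to 22901 in T24, and with the 17203 most significant peaks of every list DUSP4 region 2 no longer passed (exact p = 0.444) and SPRED1 region 3 did (exact p = 0.048). All 3 member regions called in a single library were called in T24R2, and the share of T24R2 among all regions called in a single library was not computed. The part of list length in these counts was not tested further.

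Strength was compared by limma on centred log2 fold enrichment over the 9577 regions called in all 10 libraries. Adjusted p was under 0.05 for 0 of the 12 member regions, against 0.533% of all regions higher in T24R2 and 0.324% lower. These were 51 higher and 31 lower regions, or 60 and 17 without centring. Unadjusted p was under 0.05 for 4 member regions that were higher in T24R2 (SPRED1 region 2, DUSP5 region 1, DUSP4 region 4 and DUSP6 region 2), against 7.7% of all regions, and for 0 that were lower, against 6.36%. The count fell to 2 without T24 replicate 5, without T24R2 replicate 3 or without T24R2 replicate 4. Each of those fits retained DUSP5 region 1 and SPRED1 region 2. Without T24 replicate 1 or without T24R2 replicate 5 it was 5, 4 higher and 1 lower, the lower one being SPRED2 region 1. T24 replicate 5 was the lowest of the T24 libraries on the centred scale at DUSP4 region 4, DUSP5 region 1, DUSP6 regions 2 and 3 and SPRED2 region 5. In the exact permutation test of percentiles, 0 members passed after adjustment, where even the smallest possible p had an adjusted p of 0.176. In it 5 members, all higher in T24R2, had an unadjusted p under 0.05, against 10.9% of all regions higher in that line. Over all regions 1332 had such a p, and 1041 of them were higher in T24R2, so this test leaned to that line as a whole.

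Of the 12 regions, 7 were higher and 5 lower in T24R2, with a median difference of 0.16 on the log2 scale against 0.02 over all 9577 regions. The direction of DUSP6 region 3 turned without T24 replicate 5, T24R2 replicate 2 or T24R2 replicate 4. Every T24R2 library lay above every T24 library in 2 member regions, DUSP5 region 1 and SPRED1 region 2, against 2.45% of all regions, and below in 1, SPRY2 region 2, against 1.65%. A difference in fold enrichment at 1 region cannot by itself be assigned to methylation, since the value also depends on input coverage, which is not analysed here.

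**Figure D4:**
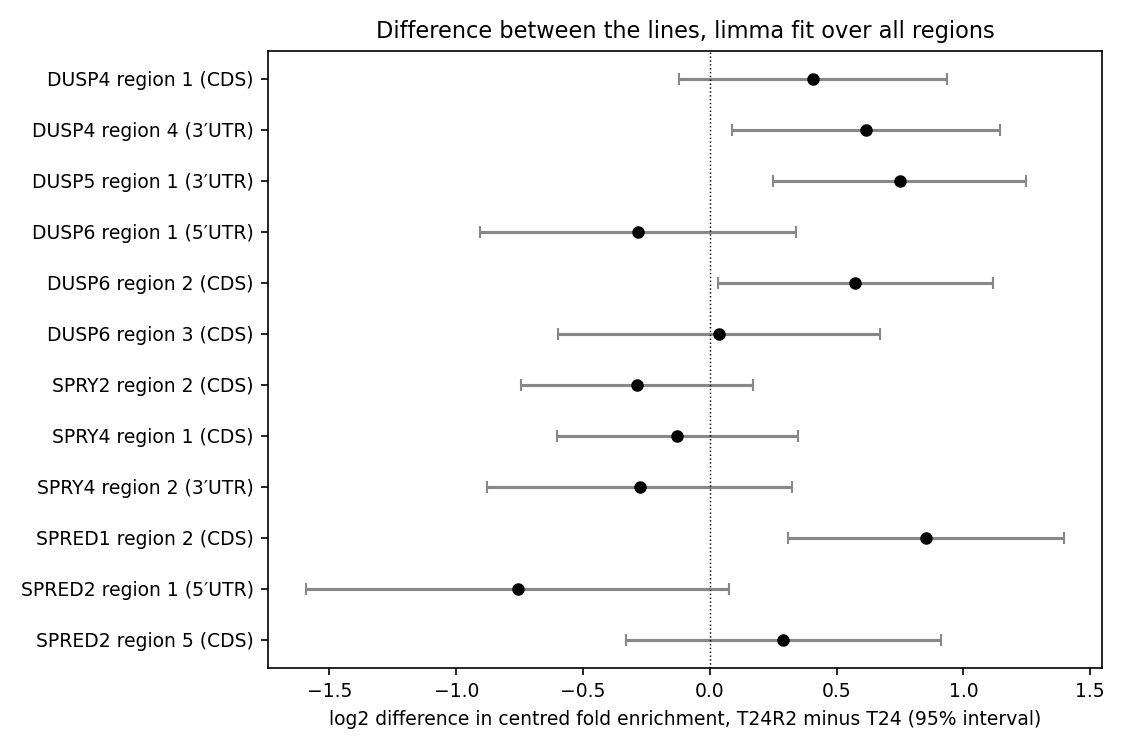
Difference in centred log2 fold enrichment, T24R2 minus T24, with 95% intervals from limma, for the 12 member regions called in all 10 libraries (positive, higher in T24R2). The intervals of SPRED1 region 2, DUSP5 region 1, DUSP4 region 4 and DUSP6 region 2 lie above 0 before adjustment, and the other 8 include 0.

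Regions of 1 transcript share its expression, so pairs of regions were compared within a gene, an analysis added after the region values were seen. Of the 6 member pairs, the largest difference was in SPRED2, where region 5 minus region 1 on the centred log2 scale averaged −0.61 (SD 1.496) over the 5 T24 libraries and 0.44 (SD 1.00) over the 5 of T24R2, a shift of 1.05 ± 0.55 (SE) towards the 3′ region (limma adjusted p = 0.583). In DUSP6, region 2 minus region 1 shifted by 0.86 ± 0.42 (SE) in the same direction (limma adjusted p = 0.552). The signal at DUSP6 region 1 may belong to another transcript, as stated above, so shared expression is not assured for the pairs that hold it. An unadjusted p under 0.05 was reached by 0 of 6 member pairs, against 9.3% of all 4206 pairs, and adjusted p under 0.05 by 0 pairs of any gene. Without T24 replicate 1 the member count was 2, the SPRED2 pair and the DUSP6 pair.

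No shift of summit position between the lines passed a test. In the exact permutation test of the strongest summit over all assignments of libraries to lines, 0 of 12 member regions had an unadjusted p under 0.05, against 3.79% of all regions, and 0 regions of any gene passed after adjustment. This permutation test can give no p below 0.0079, which limits what can pass after adjustment. The smallest member p was 0.063, for DUSP6 region 1, with T24R2 summits on average 46.2 nt nearer the 3′ end. Without T24R2 replicate 5, 1 member region passed unadjusted. SPRED2 region 5, with its 2 summit places, differed by 104 nt with an SD of 250 nt in T24 and 303 nt in T24R2.

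In the wider pathway, 4 relatives of RAS likewise had no region called in every library, again without a share over all genes to set beside it. A list of 36 other genes held 59 exonic regions in 30 genes, and 17 genes had a region called in all 10 libraries. Among MRAS, RRAS, RRAS2 and RIT1, 3 of 4 genes had a region and 0 of 4 had one in all 10 libraries. A region of RRAS, in an exon of a noncoding isoform (chr19:49636729-49637244), had a peak in every T24R2 library (5 of 5) and in 0 of 5 of T24 (exact p = 0.0079 unadjusted), at a median percentile of 20.7, and was the only region of the list specific to a line. That is 1 of 59 regions, where 3.02% of all 43676 regions were specific to T24R2 in this way. Among direct and indirect activators and inactivators of RAS, such as SOS1 and RASA1, 7 of 9 genes had a region in all 10 libraries. The count was 2 of 8 among RAF, MEK, ERK and scaffold genes, and 8 of 15 among other feedback and ERK-induced genes. In the limma fit, 0 of the 24 regions in all 10 libraries passed after adjustment in either direction, and at unadjusted p under 0.05 2 were higher and 1 lower in T24R2. Over all 9577 regions the shares at that p were 7.7% higher and 6.36% lower. The 2 higher regions were both in PHLDA1 and the lower one in KSR1, where another annotated gene overlaps; they are named after their values were seen. The median difference was −0.18 over 11 regions of RAS regulators and 0.25 over 11 regions of the other feedback genes.

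As a check of the libraries, SETD7, a positive control of the pull-down in the study, had 5 exonic regions, 2 of them in all 10 libraries, and GAPDH, the negative control, had 0. Of 12 urothelial and epithelial markers, KRT7, GATA3 and ELF3 had a region in all 5 T24 libraries and KRT7 alone in all 5 T24R2 libraries. Of the fibroblast and leukocyte markers, 0 of 4 and 0 of 4 had a region in all 5 libraries of either line. The endothelial markers PECAM1 and CDH5 had one in all 5 T24R2 libraries, and CDH5 in all 5 T24 libraries. A missing peak does not show that a gene is silent, and the part of these marker differences in the results above was not tested.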

How the data were processed

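The 10 IP peak lists were analysed (5 T24, 5 T24R2; 20 samples with inputs, whose reads were not analysed here). Groups and replicate numbers came from the sample titles. Per the labels and the study's methods, reads were aligned to hg38 (GENCODE 39) with STAR 2.7.0, unique deduplicated reads were kept with SAMtools 1.10, and MACS2 3.0.0a6 called peaks of IP over input per library (extension size 100, genome size 300e6). The fold enrichment the authors deposited is a ratio of IP to local input, the deposited −log10 q-value ranked or filtered peaks (lowest 2.00), the deposited −log10 p-value was not used, and the deposited score was not used for any result. The lists hold no counts, so depth is unknown.

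Summits were placed on GENCODE 44 exons and MANE Select transcripts, called representative here. A library had a region when a peak overlapped it by at least 1 bp, and its value was the strongest peak. Regions were those of the authors' merged list. Presence was compared by Fisher's exact test (two-sided, smallest p 0.0079). Enrichment was compared by limma 3.58.1 with trended variance on log2 fold enrichment centred on each library's median (9577 regions; R 4.3.3), and positions and percentiles by a two-sided exact permutation test over all assignments (Python 3.11.15, SciPy 1.17.1). Each had Benjamini-Hochberg adjustment over all regions and a threshold of 0.05. The procedures were tested on simulated data. All 9 members were named with every region; of the pathway list, genes with a line-specific region, and any past the enrichment threshold. 1 gene of the pathway list is not reported here. RAS regulators were named only as examples, chosen after their values were seen. Naming the genes most like HRAS or NRAS required a region in all 10 libraries, which neither had. Members, lists and markers were chosen with earlier results of these data known. Alternatives were stricter peaks, equal list lengths, other summaries, no centring, a replicate block and the omission of each library in turn.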

Additional observations from a re-analysis of the deposited data

How the results depend on the processing

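No member region passed the adjusted threshold of limma or of the summit test under any alternative run. Of the 12 members' enrichment differences, 195 of 198 alternative values had the same sign and stayed short of significance. The exceptions were DUSP6 region 3 (−0.27 to 0.17 with 1 library left out), at −0.27 without T24 replicate 5, −0.06 without T24R2 replicate 2 and −0.02 without T24R2 replicate 4. Member regions with an unadjusted limma p under 0.05 numbered 2 to 5 with 1 library left out. Those with an unadjusted presence p under 0.05 numbered 2 when 50% of a region had to be covered, 0 with the replicate block, whose smallest possible p is 0.0625, and 1 to 2 with 1 library left out. With 50% covered, DUSP4 region 2 did not pass Fisher's exact test (unadjusted p = 0.167), whereas SPRED1 region 3 did (unadjusted p = 0.048). A looser rule (4 or more libraries of one line and 1 or fewer of the other) gave 1 line-specific member region, DUSP4 region 2. Its 4 T24R2 libraries include the 1 with a summit outside the exon. The share of all regions that meet the looser rule was not computed. Member regions with an unadjusted summit p under 0.05 numbered 0 to 1 with 1 library left out. The member share with DRACH was 62.5% within 25 nt, against 71.7% of all exonic summits, and 61.8% for GGAC.

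Within genes, pairs with an unadjusted p under 0.05 numbered 1 with the replicate block, the SPRED2 pair, and 0 to 2 with 1 library left out. DUSP6 region 3 minus region 1 (−0.15 to 0.60 with 1 library left out) turned to −0.15 without T24 replicate 5, and SPRY4 region 2 minus region 1 (−0.40 to 0.061) turned to 0.061 without T24 replicate 1 and 0.03 without T24R2 replicate 5. Why these values turned was not tested.

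Over all regions, limma called 82, against 151 among regions in at least 3 libraries of each line, 42 at −log10 q of at least 5, 30 with equal list lengths, 0 by percentiles in the exact permutation test, and 34 to 82 with 1 library left out. The first of these tested 14305 regions and the next 7038 and 7010. The median of all regions was 0.10 (log2) higher in T24R2 without centring. Same-numbered libraries deviated together (correlation over 0.1) in 1 of 5 pairs, and 1 of 5 T24 libraries correlated best with its own number. These correlations cannot settle whether the numbers pair the samples. At DUSP6 region 3, summits lay nearest the stop codon in replicates 3 and 5 of both lines. They were at −41 and −40 nt in T24 and at −48 and −42 nt in T24R2. With the replicate block limma called 39 regions higher and 26 lower, and SPRED2 region 1 had an adjusted p of 0.228 in limma. The depth of the libraries limits every call of a weak peak, such as those of HRAS and NRAS, and could not be examined.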
